A study of Mus musculus with 10 samples.

Results

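The genes described here are the lysosomal genes other than the cathepsins, measured in 10 RNA-seq libraries of mouse subcutaneous tumours. They are the rows of the deposited gene table whose KEGG pathway annotation holds the word Lysosome, of which there were 130. Rows with a cathepsin symbol and the genes Lgmn, Cd68, Slc11a1 and Slc11a2, 20 rows together, were left out, which leaves 110 genes of the 18223 in the table. Of these members 103 had enough reads to be tested and 7 did not.

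Every tumour was grown from MC38, a mouse colon adenocarcinoma line that forms tumours in mice with an intact immune system. There were 5 libraries labelled HTB, for high tumour burden, and 5 labelled LTB, for low tumour burden. In the treatment labels HTB has 2000000 and LTB has 500000, each for 14 days, taken here as injected cells and days of growth. No allele, drug, strain, sex or age of the animals is given in the labels used here, and no label states that each library is a different animal. The p-values therefore measure the spread between these libraries, which may be in part technical. The RNA came from whole tumours, so in every comparison fewer cells of a type and less RNA per cell cannot be told apart.

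The lysosome is the acid compartment in which cells break down proteins, lipids, glycans and nucleic acids taken up from outside or delivered by autophagy. A proton pump, the V-ATPase, acidifies it. Most of its soluble enzymes are tagged with mannose 6-phosphate in the Golgi and carried by receptors in clathrin-coated vesicles, while membrane proteins such as Lamp1 and Lamp2 line its inner face. Many lysosomal genes carry a short promoter motif, the CLEAR element, which is bound by the transcription factor TFEB and its relatives. In tumours, macrophages are known as cells rich in lysosomes, and they use them to digest engulfed material.

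The libraries held between 23070917 and 27185168 estimated reads, and values are given as CPM, reads relative to TMM-scaled library totals. A pair of libraries stood apart. In HTB replicate 2, 10 skeletal muscle marker genes summed to 14804 CPM, where the other HTB libraries had 10.6 to 61.2 CPM and LTB 6.68 to 9.04 CPM. There 10 adipocyte markers summed to 5685 CPM, where the other HTB libraries had 116 to 276 CPM and LTB 91.5 to 133 CPM. In LTB replicate 1, 10 neutrophil markers summed to 74.6 CPM against 11.6 to 15.9 CPM in the other LTB libraries, and 10 T cell markers to 226 CPM against 49.6 to 109 CPM. The 19 macrophage markers together ranged over the libraries from 1522 to 3248 CPM in LTB, again highest in replicate 1, and over 961 to 1598 CPM in HTB. Of these, 6 were lower in HTB (Itgam, Msr1, Lyz2, Fcer1g, Tyrobp and Cd68) and 1, Cd163, was higher. That is 31.6% lower and 5.26% higher, beside 7.51% and 3.91% of all tested genes. T cell markers summed to 17.6 to 50.8 CPM in HTB, and 7 of 10 were lower there (70.0%, beside 7.51% of all tested genes). Each marker gene in the table had reads in at least 1 library. Of 9 epithelial markers measured only Cdh1 and Epcam had enough reads to be tested, and the 9 summed to 2.96 to 16.3 CPM, although MC38 derives from a colon carcinoma. The keratins Krt8 and Krt18 averaged 0.120 and 0.0625 CPM in HTB, and in LTB Krt8 averaged 0.0326 CPM and Krt18 had no read. The part of these cells in the lysosomal results was not tested.

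A minority of lysosomal genes differed between the groups, and most of those were lower in HTB. With edgeR's quasi-likelihood test and Benjamini-Hochberg adjustment over all 13469 tested genes, 12 of 103 members were lower in HTB, or 11.7%, beside 7.51% of all tested genes. In the other direction 2 members were higher, or 1.94%, beside 3.91% of all tested genes. The other 89 did not pass. The lower members included Atp6v0d2, Napsa, Laptm5, Psap, Atp6v0b, Hexa, Atp6v0c, Litaf, Tcirg1 and Pla2g15, and the higher were Arsg and Ap3s1. For 11 members every HTB library lay below every LTB library, and for 1 every HTB library lay above, where 7.4% and 4.13% of all tested genes had such separate ranges.

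Most members moved little. Their median log2 fold change, HTB minus LTB, was -0.07, with quartiles at -0.18 and 0.04, while the median of all tested genes was 0.02 with quartiles at -0.16 and 0.17. The change had a negative sign in 72 of 103 members (69.9%) and in 47.3% of all tested genes. It lay within 0.2 of 0 on the log2 scale in 68 members (66.0%) and in 57.3% of all tested genes. The members' median spread between libraries of a group, as a coefficient of variation of CPM, was 9.67% in HTB and 10.5% in LTB. For comparison, 17 of the lysosome rows that had been left out could be tested, with a median of -0.57. Of these 8 were lower in HTB (47.1%, beside 7.51% of all tested genes) and 0 higher. At an unadjusted p under 0.05 in edgeR 1 of these was higher, and 1 was with DESeq2 and 0 with limma voom. Among all genes, 1864 of 13469 were higher at that unadjusted p, 7.56% with DESeq2 and 3.56% with limma voom. The difference between the left-out rows and the members was not tested.

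**Figure D1:**
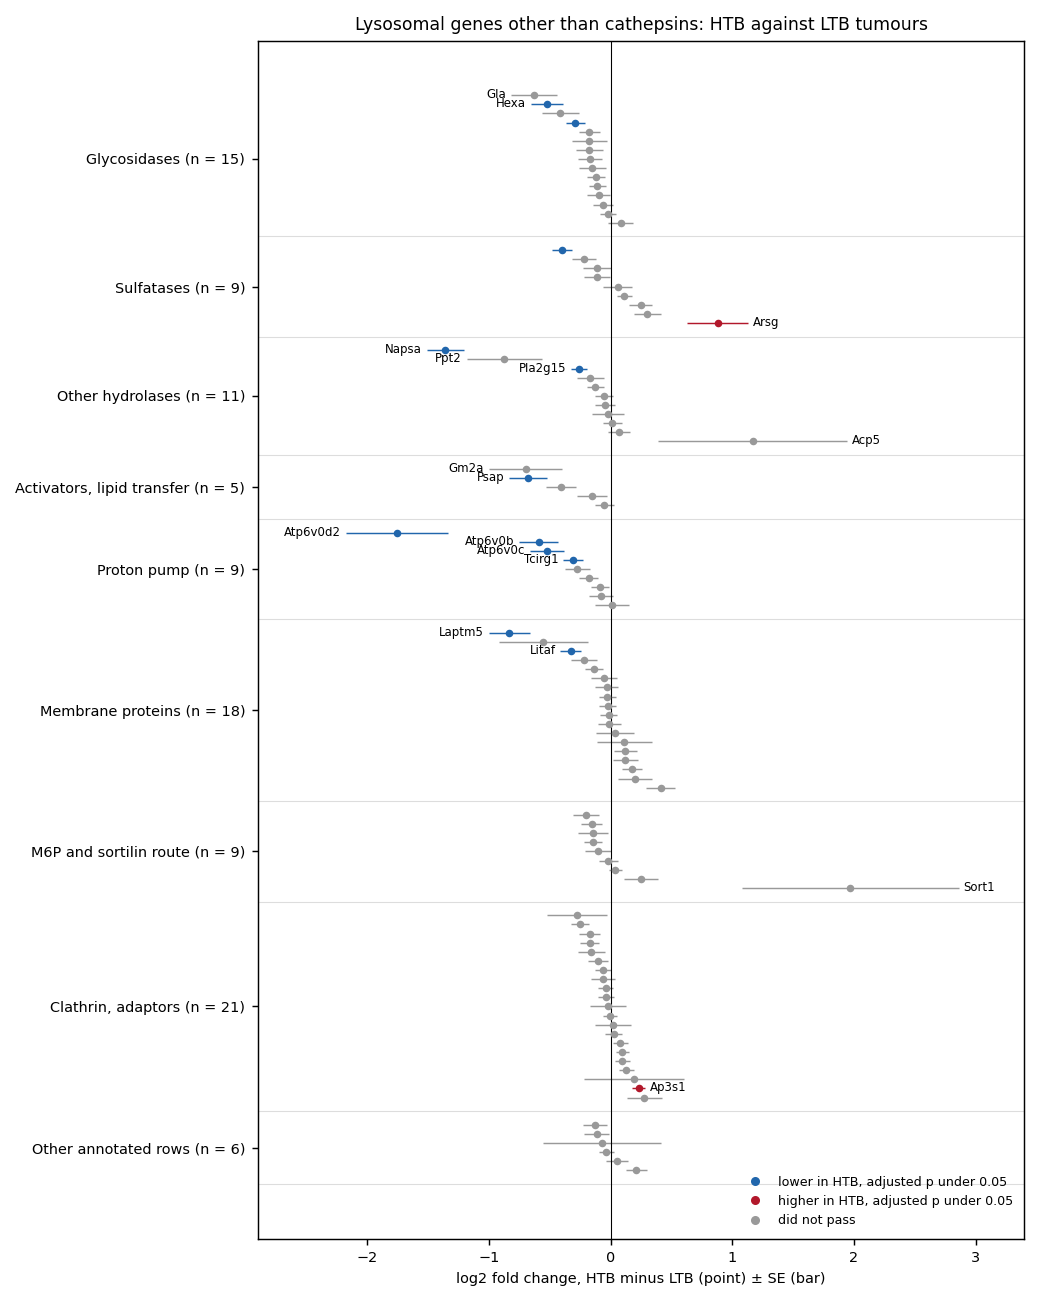
Fitted log2 fold change of each tested member, HTB minus LTB (horizontal axis; points with bars of ± 1 SE), grouped by the role of the protein; blue points were lower and red points higher in HTB at an adjusted p under 0.05, grey points did not pass. Of the 103 points, 68 lie within 0.2 of 0, 12 are blue and 2 are red, and Sort1 and Acp5 stand far to the right with wide bars.

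**Figure D2:**
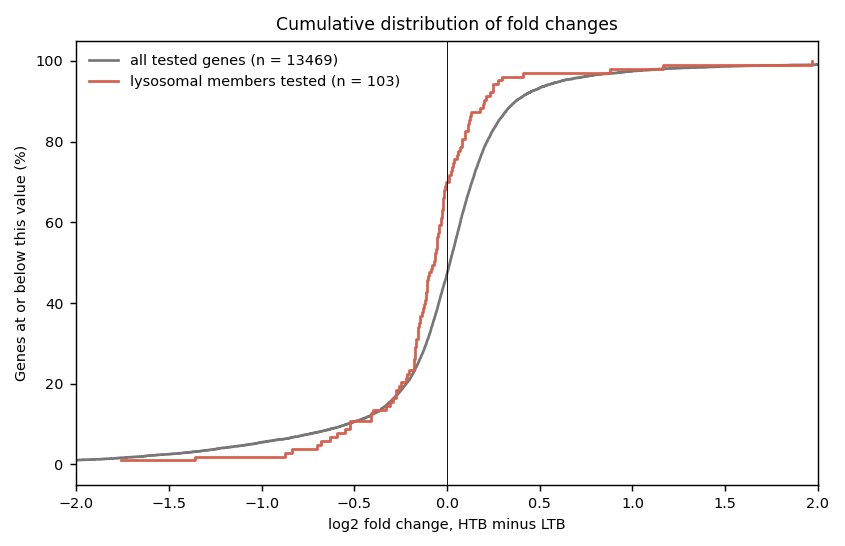
Cumulative share of genes (vertical axis, percent) at or below each log2 fold change, HTB minus LTB (horizontal axis, shown from -2 to 2), for the 103 tested members and for all 13469 tested genes. The members' curve is the steeper one around 0 and crosses 0 at 69.9%, the curve of all genes at 47.3%.

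The count of lower members moved with single libraries. It was 17 without HTB replicate 2 and, in turn, 6, 4, 3 and 5 without HTB replicates 1, 3, 4 and 5. It was 11, 12, 11, 4 and 7 without LTB replicates 1 to 5. The count of higher members was 5 without HTB replicate 2, 2 without HTB replicate 1, 1 without LTB replicate 1, 3, 4 or 5, and 0 without any of the other 4 libraries. The counts over all genes moved too. Without HTB replicate 2, 16.5% of members were lower beside 12.7% of all genes tested, and 4.85% were higher beside 9.77%. Without HTB replicate 1, 3, 4 or 5, the members' shares lower were 5.83%, 3.88%, 2.91% and 4.85%, beside 6.22%, 4.12%, 4.16% and 5.09% of all genes. Without LTB replicates 1 to 5 they were 10.7%, 11.7%, 10.7%, 3.88% and 6.8%, beside 6.01%, 6.61%, 5.16%, 6.28% and 6.05%. The members' share lower was thus below that of all genes in 5 of the 10 fits, those without HTB replicate 1, 3, 4 or 5 or LTB replicate 4. The shares of all genes higher in HTB were 2.7%, 1.3%, 1.3% and 1.77% without HTB replicates 1, 3, 4 and 5, and 2.17%, 2.76%, 1.78%, 2.25% and 2.22% without LTB replicates 1 to 5. With HTB replicate 2 and LTB replicate 1 both left out, 20 members were lower and 4 higher, beside 12.4% and 9.26% of all genes. Among the members that passed in all 10 fits that left out 1 library were Napsa and Laptm5, and Psap passed in 8, all but those without HTB replicate 3 or 4. Of the 14 called members 10 passed in only 2 to 5 of the 10 fits.

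A promoter motif known from lysosomal genes was counted, which the annotation did not use. As the motif is known from such genes, its share among the members is a description and not an independent result. Of the 110 members, 86 matched the RefSeq promoter table for GRCm38.p6, which gives 250 bases before to 50 bases after the start of transcription. The core of the CLEAR element, TCACGTG or its reverse complement CACGTGA, stood in 18 of these 86 windows, or 20.9%. Among 10651 tested genes with a promoter in the table it stood in 6.79%, and among all 27025 genes of the table in 4.29%. The lysosome rows that had been left out held it in 3 of 15 windows, or 20.0%, and 68 of the 86 members did not hold it. The longer palindromic CLEAR element, the core with a G before it and AC after it, was found in 2.33% of the members (Cln3 and Igf2r), against 0.751% of tested genes and 0.37% of all. Every longer element also holds the core. The carriers were spread over the roles: Gaa, Gla, Glb1 and Naglu among the glycosidases, Arsa, Sgsh and Sumf1 among the sulfatase genes, Atp6v0b and Atp6v0d1 in the pump, Cd164, Cln3, Lamp1 and Mcoln1 in the membrane, and Gga2, Gnptg, Igf2r, Nagpa and Ap1s2 in transport.

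A selection of these windows shows how the motif is placed in genes of different roles. Each is printed 5′ to 3′ on the gene's own strand in GRCm38.p6, and capitals mark the core on either strand, matches that overlap being joined into 1 run.
Lamp1, chr8:13159081-13159160, plus strand: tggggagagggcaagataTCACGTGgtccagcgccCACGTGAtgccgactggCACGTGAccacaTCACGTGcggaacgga
Mcoln1, chr8:3500439-3500518, plus strand: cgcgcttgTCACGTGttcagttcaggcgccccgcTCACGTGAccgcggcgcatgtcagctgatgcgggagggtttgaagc
Igf2r, chr17:12769707-12769786, minus strand: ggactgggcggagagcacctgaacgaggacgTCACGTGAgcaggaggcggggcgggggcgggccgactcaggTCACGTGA
Naglu, chr11:101069994-101070073, plus strand: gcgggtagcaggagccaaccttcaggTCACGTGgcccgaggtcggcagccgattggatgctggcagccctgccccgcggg
Atp6v0b, chr4:117887335-117887409, minus strand: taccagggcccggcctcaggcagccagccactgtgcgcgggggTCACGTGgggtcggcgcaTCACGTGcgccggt
The windows of Lamp1, Mcoln1 and Igf2r cover the 80 bases before the start, that of Naglu bases 100 to 21 before it, and that of Atp6v0b bases 80 to 6 before it. Lamp1 holds 4 separate cores and Naglu 1.

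Of the lower members only Atp6v0b, 1 of 8 with a RefSeq promoter, held it, against 17 of the other 72 tested members. The 18 carriers had log2 fold changes between -0.63 and 0.25, with a median of -0.10, and 1 of the 18 was lower in HTB, beside 7.51% of all tested genes. A match of these letters is a description of the window and not a measured binding site.

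The V0 sector of the proton pump sits in the membrane and conducts the protons. Of 9 tested pump members 4 were lower (44.4%, beside 7.51% of all tested genes), 0 higher and 5 did not pass. The median log2 fold change was -0.27, with a negative sign in 8. In the pump, and likewise among the glycosidases, the other hydrolases and the activators, 0 genes were higher with edgeR at an unadjusted p under 0.05, with DESeq2 or with limma voom. Among all genes, 1864 of 13469 were higher at that unadjusted p, 7.56% with DESeq2 and 3.56% with limma voom. Atp6v0d2 (NCBI gene 242341, chromosome 4 from 19876838 to 19922566) encodes an isoform of subunit d known from osteoclasts and macrophages. It had 11.2, 3.42, 8.93, 16.8 and 21.0 CPM in LTB replicates 1 to 5 and 2.40, 5.28, 3.81, 2.86 and 3.66 CPM in HTB. LTB replicate 2 lay within the HTB range and the other 4 LTB libraries above it. The log2 fold change was -1.76 ± 0.42 (SE; edgeR adjusted p = 0.0251), the largest fall among the members that passed. It was lost with limma voom. All 4 pump calls were lost without HTB replicate 1, 4 or 5 or LTB replicate 4, 3 of the 4 without HTB replicate 3 or LTB replicate 5, and 2 without LTB replicate 1.

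Atp6v0c (11984, chromosome 17 from 24163866 to 24169742) encodes the subunit that forms most of the proton-carrying ring. Its values were 395, 223, 238, 273 and 303 CPM in LTB and 202, 216, 189, 193 and 192 CPM in HTB. The groups did not overlap, and the log2 fold change was -0.52 ± 0.14 (adjusted p = 0.0366). Atp6v0b (114143, chromosome 4 from 117884330 to 117887329), a second ring subunit and the carrier of the last promoter printed above, had 80.9, 49.1, 47.2, 66.3 and 62.0 CPM in LTB and 43.7, 49.2, 34.6, 34.0 and 40.2 CPM in HTB. HTB replicate 2 lay above the LTB libraries 2 and 3, so the ranges overlapped. It changed by -0.59 ± 0.16 on the log2 scale (adjusted p = 0.0389).

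Tcirg1 (27060, chromosome 19 from 3895932 to 3912774) encodes the a3 isoform of the large membrane subunit, known from osteoclasts. It had 164, 133, 130, 146 and 132 CPM in LTB and 110, 105, 130, 108 and 114 CPM in HTB, where replicate 3 reached the lowest LTB value. Its change was -0.31 ± 0.08 (adjusted p = 0.0365). The counterparts with a wide tissue distribution had values close to 0: Atp6v0d1 changed by -0.09 ± 0.07 (adjusted p = 0.443) and Atp6v0a1 by 0.01 ± 0.14 (adjusted p = 0.973). For Atp6v0a1, LTB replicate 5 had 84.8 CPM and the other LTB libraries 49.1 to 57.6 CPM. With 1 library left out, the change of Atp6v0a1 lay between -0.05 and 0.17 and did not pass. Atp6ap1, an accessory subunit, changed by -0.27 ± 0.10 (adjusted p = 0.109). The cytosolic V1 sector, which hydrolyses ATP to drive the pump, is largely outside the KEGG rows and was taken from a separate list. Of its 9 tested subunits 0 passed in edgeR in either direction, while 4 were lower and 1 higher at an unadjusted p under 0.05. With DESeq2 1 subunit was lower and with limma voom 0. Among all genes, 2046 of 13469 were lower and 1864 higher at that unadjusted p. The shares of all genes lower were 9.94% with DESeq2 and 7.42% with limma voom. In the V1 sector Atp6v1a changed by -0.23 (adjusted p = 0.0713), Atp6v1c1 by -0.26 (adjusted p = 0.092) and Atp6v1d by -0.36 (adjusted p = 0.148).

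**Figure D3:**
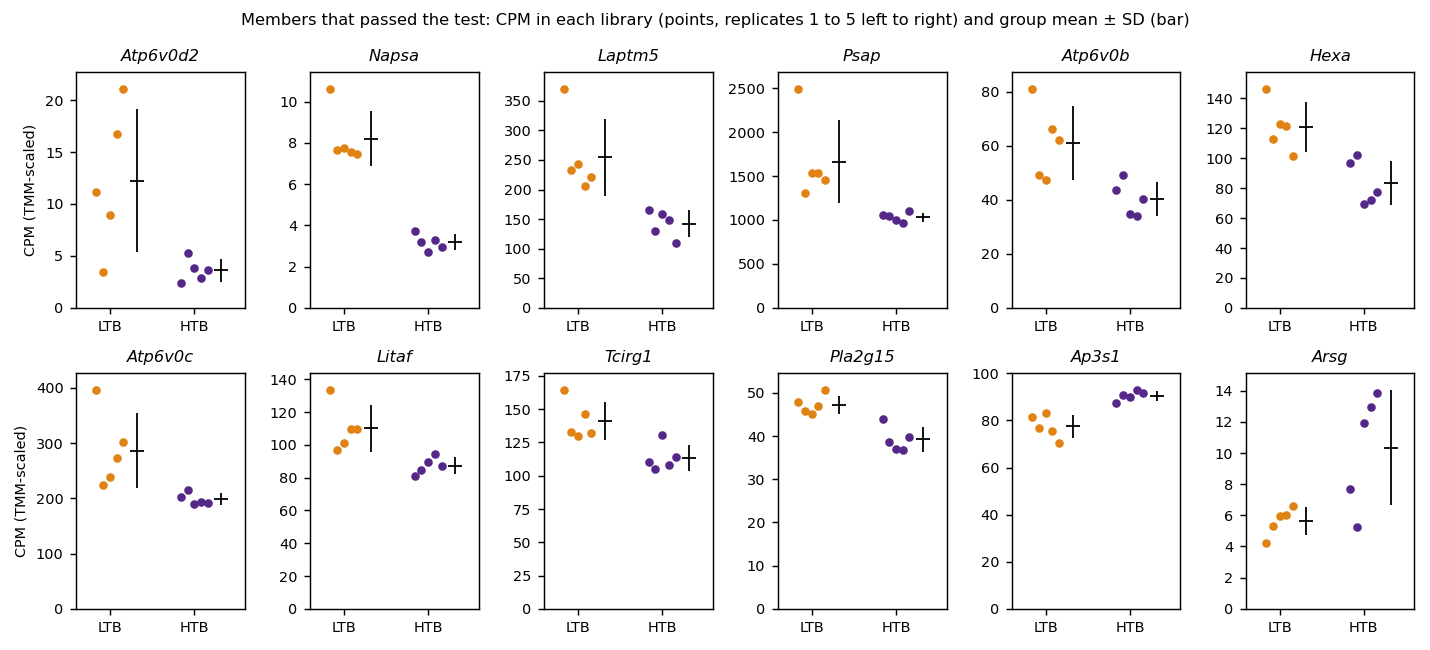
CPM (vertical axes, from 0) in each library for 12 of the 14 members that passed, ordered from the most negative to the most positive log2 fold change; points are replicates 1 to 5 from left to right in LTB and HTB, and bars are the group mean ± SD. LTB replicate 1 is the leftmost and highest LTB point for Napsa, Laptm5, Psap, Hexa, Atp6v0c, Atp6v0b, Litaf and Tcirg1. For Atp6v0d2, LTB replicate 2 falls among the HTB points.

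Glycosidases remove sugars from glycolipids, glycoproteins and glycosaminoglycans one at a time. Of 15 tested, 2 were lower (13.3%, beside 7.51% of all tested genes), 0 higher and 13 did not pass. The sign was negative in 14, Manba being the exception, and the median was -0.17. Hexa (15211, chromosome 9 from 59539545 to 59565109), the alpha subunit of the hexosaminidase that degrades GM2 ganglioside, had 146, 113, 123, 122 and 101 CPM in LTB and 96.6, 102, 69.2, 72.2 and 77.8 CPM in HTB. The highest HTB value, in replicate 2, just passed the lowest LTB value. The log2 fold change was -0.53 ± 0.13 (adjusted p = 0.0305). The table gives Tmem202 a span that overlaps nearly all of Hexa, and the counting used for overlapping genes is not given in the sources used here.

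Gla, the alpha-galactosidase of globoside breakdown, had 44.2 CPM in LTB replicate 1, 23.3 to 28.4 CPM in the other LTB libraries and 13.9 to 23.6 CPM in HTB. Its change of -0.63 ± 0.19 did not pass (adjusted p = 0.0576), though it did with DESeq2 (adjusted p = 0.0184). Neu1, the lysosomal sialidase, had 31.4 CPM in LTB replicate 1 and 19.6 to 20.1 CPM in the other LTB libraries. Its HTB values, 14.4 to 19.3 CPM, lay below all of these, and its change of -0.41 ± 0.15 did not pass either (adjusted p = 0.106). Gaa, which degrades glycogen, Gusb and Glb1, the beta-glucuronidase and beta-galactosidase, changed by -0.17 (adjusted p = 0.321), -0.18 (0.442) and -0.02 (0.846).

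The sulfatases and their activators held 1 gene in each direction among 9 tested, with a median of 0.06. That is 11.1% lower and 11.1% higher, beside 7.51% and 3.91% of all tested genes. Arsg (74008, chromosome 11 from 109440087 to 109573330), a sulfatase of heparan sulfate, was the gene that was higher. It had 4.24, 5.33, 5.98, 6.03 and 6.58 CPM in LTB and 7.72, 5.28, 11.9, 12.9 and 13.9 CPM in HTB, where replicate 2 alone fell within the LTB range. The log2 fold change was 0.88 ± 0.25 (adjusted p = 0.0461), and it did not pass with limma voom or without the filter on low counts. It passed in 2 of the 10 fits that left out 1 library, those without HTB replicate 1 or 2, and adjusted p reached 0.11. Without HTB replicate 2 the change was 1.05, with no p given, since leaving out the overlapping library separates the groups by choice. That pass therefore adds no support. The span of Arsg overlaps those of Slc16a6 and Wipi1, so its reads are uncertain. Spans of the lower members Tcirg1, Laptm5, Psap, Litaf, Atp6v0b, Atp6v0c and Atp6v0d2 also overlap those of other genes. Their reads are uncertain in the same way.

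A pair of further genes of heparan sulfate breakdown had positive values that did not pass. Hgsnat, the acetyltransferase of that pathway, stood at 51.1 ± 3.46 CPM in LTB and 62.7 ± 11.1 CPM in HTB (SD, n = 5 each), with overlapping ranges and a change of 0.30 ± 0.11 (adjusted p = 0.104). Ids, the iduronate sulfatase, changed by 0.25 ± 0.09 (adjusted p = 0.112). Without HTB replicate 2, which lay within the LTB range for both genes, the changes were 0.37 and 0.30, with no p given.

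Of the 11 other hydrolases tested 2 were lower (18.2%, beside 7.51% of all tested genes) and 0 higher, with a median of -0.05. Napsa (16541, chromosome 7 from 44572445 to 44586846), the aspartic protease napsin A best known from lung and kidney, had the smallest adjusted p of all members. Its values were 10.6, 7.66, 7.77, 7.56 and 7.47 CPM in LTB and 3.75, 3.21, 2.71, 3.30 and 2.97 CPM in HTB. The groups were far apart, at 8.21 ± 1.34 CPM (SD, n = 5) in LTB and 3.19 ± 0.390 CPM (n = 5) in HTB. The log2 fold change was -1.36 ± 0.15 (edgeR adjusted p = 8.73e-04) and lay between -1.42 and -1.25 whichever library was left out. Pla2g15 (192654, chromosome 8 from 106150351 to 106164715), the lysosomal phospholipase A, had 45.2 to 50.6 CPM in LTB and 36.9 to 43.9 CPM in HTB. Its change was -0.26 ± 0.06 (adjusted p = 0.0259). Lipa, the acid lipase that frees cholesterol and fatty acids, changed by 0.01 ± 0.08 (adjusted p = 0.936).

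In this group Acp5 and Ppt2 followed single libraries. Acp5, the tartrate-resistant acid phosphatase of osteoclasts and macrophages, had 67.6 CPM in HTB replicate 2, while the other HTB libraries had 4.55 to 16.8 CPM and LTB 4.12 to 19.2 CPM. Its log2 fold change of 1.17 ± 0.78 did not pass (adjusted p = 0.343) and became -0.12 without HTB replicate 2 (adjusted p = 0.879). Ppt2, a thioesterase, had 26.8 CPM in LTB replicate 1, 9.07 to 13.0 CPM in the other LTB libraries and 6.01 to 10.6 CPM in HTB. Its change of -0.87 ± 0.31 did not pass in edgeR (adjusted p = 0.0936) and did with DESeq2 (adjusted p = 0.0393). In edgeR it was -1.04 without HTB replicate 2, with no p given, since leaving out the overlapping library separates the groups by choice. Without LTB replicate 1 the change of Ppt2 was -0.48 (adjusted p = 0.152).

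The 5 tested activator and lipid transfer proteins all had negative values, with a median of -0.41. Of these 1 passed as lower, or 20.0%, beside 7.51% of all tested genes. Psap (19156, chromosome 10 from 60277628 to 60302600) encodes prosaposin, which is cut into the saposins that present sphingolipids to their enzymes. It was the member with the highest CPM, at 2487, 1302, 1540, 1533 and 1454 CPM in LTB and 1058, 1043, 1003, 965 and 1097 CPM in HTB. The groups did not overlap. The log2 fold change was -0.68 ± 0.15 (adjusted p = 0.0204), and without LTB replicate 1 it was -0.49 (adjusted p = 0.0034). Per length of transcript, Psap stood at 389 ± 19.2 RPKM in HTB and 626 ± 177 RPKM in LTB (SD, n = 5 each).

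Gm2a, the activator that lifts GM2 ganglioside to hexosaminidase A, had 107, 79.9, 97.3, 72.9 and 135 CPM in LTB and 56.2, 116, 46.9, 43.4 and 38.4 CPM in HTB. HTB replicate 2 lay among the LTB libraries and the other 4 HTB libraries below them all. The change of -0.70 ± 0.30 did not pass over all libraries (adjusted p = 0.154). Without HTB replicate 2 it was -1.09, with no p given, since leaving out the overlapping library separates the groups by choice. Npc2 and Npc1 hand cholesterol from the lumen to the membrane. Npc2 had 312 to 504 CPM in LTB and 256 to 303 CPM in HTB, ranges that did not overlap, but its change of -0.41 ± 0.12 did not pass in edgeR (adjusted p = 0.0549) and did with DESeq2 (adjusted p = 0.0156). Npc1 changed by -0.15 ± 0.12 (adjusted p = 0.434).

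**Figure D4:**
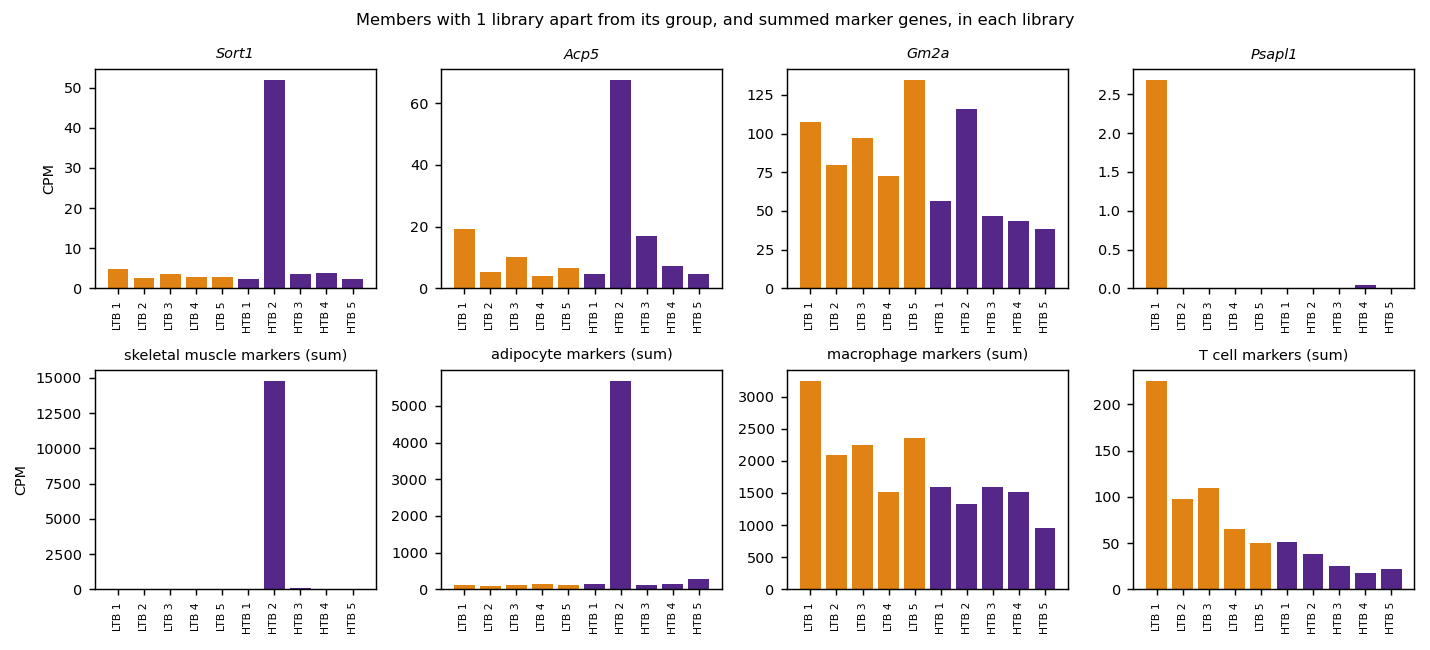
CPM in each library (bars, from 0; LTB replicates 1 to 5, then HTB replicates 1 to 5) for Sort1, Acp5, Gm2a and Psapl1 and for the summed skeletal muscle, adipocyte, macrophage and T cell markers. HTB replicate 2 stands apart for Sort1, Acp5, Gm2a, muscle and adipocyte markers, and LTB replicate 1 is highest for Psapl1 and for the macrophage and T cell markers.

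Membrane proteins and transporters counted 18 tested genes, with a median of -0.02. Of these 2 were lower (11.1%, beside 7.51% of all tested genes), 0 higher and 16 did not pass. Laptm5 (16792, chromosome 4 from 130912890 to 130936148) encodes a lysosomal membrane protein of blood-derived cells that lowers the surface level of antigen receptors. It had 369, 233, 243, 206 and 221 CPM in LTB and 165, 129, 159, 148 and 109 CPM in HTB. No HTB library reached the lowest LTB library, and the log2 fold change was -0.84 ± 0.17 (adjusted p = 0.0125). Litaf (56722, chromosome 16 from 10959273 to 10993121), a small protein of late endosomes and lysosomes, had 96.7 to 133 CPM in LTB and 80.8 to 94.3 CPM in HTB, a change of -0.33 ± 0.09 (adjusted p = 0.0352).

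The structural membrane proteins did not pass. Lamp1 had 614, 463, 526, 525 and 522 CPM in LTB and 484, 465, 463, 479 and 516 CPM in HTB, a change of -0.13 ± 0.07 (adjusted p = 0.257). Lamp2, its close relative with a role in autophagy, changed by -0.22 ± 0.11 (adjusted p = 0.213), and Cd63, a tetraspanin of late endosomes, by -0.01 ± 0.09 (adjusted p = 0.949). Mcoln1, the calcium release channel of the lysosome and a carrier of CLEAR cores, stood at 24.3 ± 1.52 CPM in HTB and 24.7 ± 1.39 CPM in LTB (SD, n = 5 each; adjusted p = 0.906). Scarb2, an integral membrane protein of the lysosome, changed by 0.18 ± 0.08 (adjusted p = 0.185). Laptm4b, a relative of Laptm5 known to be raised in carcinomas, had 31.3 CPM in LTB replicate 4, 20.4 to 23.4 CPM in the other LTB libraries and 28.5 to 37.9 CPM in HTB. Its change of 0.41 ± 0.12 did not pass in edgeR (adjusted p = 0.0532), and it did pass with DESeq2 and with limma voom. The near-identical Entpd4 and Entpd4b may share reads, and their values of 0.11 and 0.20 are uncertain.

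Of the 9 tested genes of the mannose 6-phosphate and sortilin route, 0 passed in either direction with edgeR, beside 11.4% of all tested genes. With limma voom, with DESeq2 or at an unadjusted p under 0.05 the count was also 0, but DESeq2 gave no p for Sort1. Among all genes, 2046 of 13469 were lower and 1864 higher at that unadjusted p. With DESeq2 9.94% of all genes were lower and 7.56% higher, and with limma voom 7.42% and 3.56%. Without HTB replicate 2 Gnptab was lower at -0.21, with no p given, since leaving out that overlapping library separates the groups by choice. The median of the route was -0.10. Igf2r, the large mannose 6-phosphate receptor that also takes up and clears insulin-like growth factor 2, had 150, 212, 192, 214 and 176 CPM in LTB and 239, 168, 202, 220 and 287 CPM in HTB. The groups overlapped and the change was 0.25 ± 0.14 (adjusted p = 0.27). M6pr, the small receptor, changed by -0.15 ± 0.12 (adjusted p = 0.457), and Gnptab, which makes the tag, by -0.15 ± 0.07 (adjusted p = 0.218). Sort1, or sortilin, carries some lysosomal proteins without the tag and is also part of the glucose transporter vesicles of fat and muscle. It had 52.0 CPM in HTB replicate 2, while the other HTB libraries had 2.37 to 3.73 CPM and LTB 2.65 to 4.77 CPM. Its log2 fold change of 1.97 ± 0.89 did not pass (adjusted p = 0.172) and was -0.14 without HTB replicate 2 (adjusted p = 0.678), the library with the high muscle and adipocyte sums.

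Clathrin and its adaptors form the coats of the vesicles. Of 21 tested genes 0 were lower and 1 was higher with edgeR (4.76%, beside 3.91% of all tested genes), with a median of -0.02. At an unadjusted p under 0.05, 1 was lower, and DESeq2 also called 1 lower, Ap1g2, while limma voom called 0. Among all genes, 2046 of 13469 were lower at that unadjusted p, 9.94% with DESeq2 and 7.42% with limma voom. Ap3s1 (11777, chromosome 18 from 46741876 to 46791832) encodes the small subunit of the adaptor AP-3, which sorts membrane proteins to lysosomes. It had 81.2, 77.0, 83.2, 75.5 and 70.3 CPM in LTB and 87.3, 90.7, 89.9, 92.8 and 91.7 CPM in HTB. Every HTB library lay above every LTB library, at a small log2 fold change of 0.23 ± 0.06 (adjusted p = 0.0265). Ap1g2, a gamma subunit of AP-1, had separate ranges in the other direction, 21.2 to 24.6 CPM in LTB and 17.3 to 20.7 CPM in HTB, but did not pass with edgeR (-0.25 ± 0.08, adjusted p = 0.0574). Ap1b1 and Ap1s1 changed by -0.17 (adjusted p = 0.173) and -0.16 (adjusted p = 0.353).

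A last set of 8 rows carries the annotation for genes with no role in the lists above, and some overlap the span of another lysosome row, such as Rmc1 with Npc1, Fibp with Ctsw and Tmem202 with Hexa. Of these 6 were tested and 0 passed with edgeR, DESeq2 or limma voom, and 1 was higher at an unadjusted p under 0.05. Among all tested genes, 11.4% passed in either direction with edgeR, and 1864 of 13469 were higher at that unadjusted p. Of the 7 members with too few reads for a test, Psapl1, a prosaposin-like gene, had 71 reads in LTB replicate 1, 1 read in HTB replicate 4 and 0 in the other 8 libraries. Lamp3, a Lamp relative of mature dendritic cells, had 11 reads over the LTB libraries and 1 over HTB. Atp6v0a4 had 21 and 8 reads, Ap1m2 15 and 6, Dnase2b 5 and 2, 6430590A07Rik 24 and 43, and Tmem202 43 and 58, in LTB and HTB in that order.

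Ratios within a library do not depend on library size and compare relatives of different tissue distribution. Of 6 pairs, 1 differed by a two-sided exact permutation test with adjustment over the 6. The log2 ratio of Laptm5 to Laptm4a, its widely expressed relative, was -0.25, -0.81, -0.68, -1.13 and -1.05 in LTB and -1.48, -1.47, -1.19, -1.49 and -2.18 in HTB. The groups did not overlap and differed by -0.78 ± 0.23 (SE; exact p = 0.00794, the smallest that 5 against 5 can give; adjusted p = 0.0476). It no longer passed (exact adjusted p = 0.0952) in 7 of the 10 tests that left out 1 library. Those were the tests without HTB replicate 1, 3, 4 or 5 or LTB replicate 1, 3 or 4. With 4 against 5 libraries a lone pair cannot pass after adjustment over 6, even when its groups are separate. These 7 outcomes therefore do not measure how far the ratio rests on single libraries. The log2 ratio of Atp6v0d2 to Atp6v0d1 was -2.69, -4.07, -2.83, -2.05 and -1.72 in LTB and -4.61, -3.57, -4.04, -4.34 and -4.21 in HTB. Its difference of -1.48 ± 0.44 missed the threshold (exact p = 0.0238, adjusted p = 0.0714), with LTB replicate 2 inside the HTB range. Without that library it was -1.83, with no p given, since leaving out the overlapping library separates the groups by choice.

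The other 4 pairs did not pass. Tcirg1 against Atp6v0a1 differed by -0.34 ± 0.19 (exact p = 0.119, adjusted p = 0.238), and LTB replicate 5, at 0.64, lay below all HTB libraries while the other 4 LTB libraries lay above them all. Without LTB replicate 5 the difference was -0.50, again with no p. Igf2r against M6pr differed by 0.36 ± 0.24 (exact p = 0.159, adjusted p = 0.238) and, without HTB replicate 2, which alone of the HTB libraries lay within the LTB range, by 0.47. Lamp2 against Lamp1 differed by -0.10 ± 0.10 (exact p = 0.357, adjusted p = 0.429) and Ap1s2 against Ap1s1 by 0.13 ± 0.21 (exact p = 0.532, adjusted p = 0.532).

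**Figure D5:**
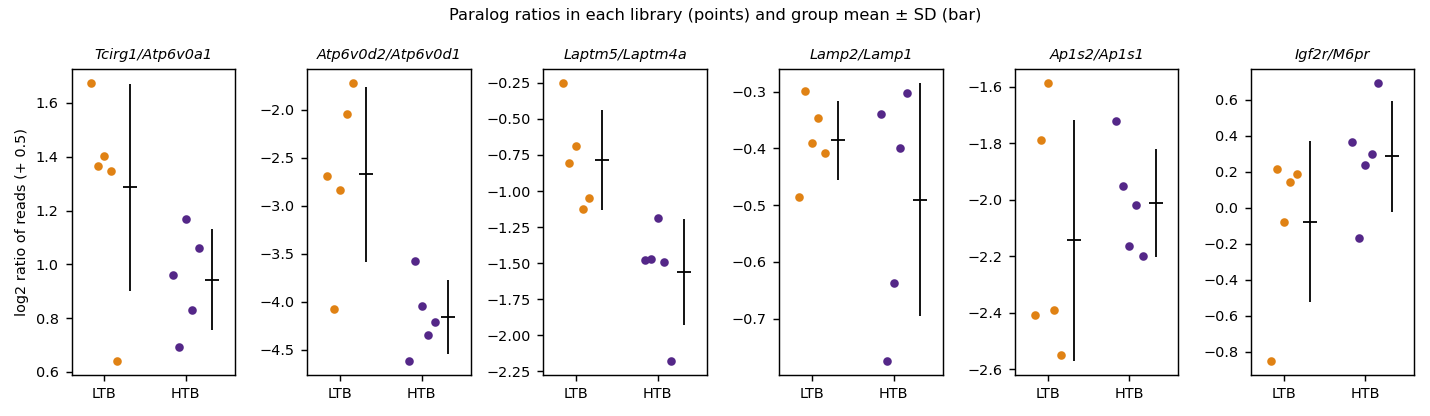
Log2 ratio of reads (vertical axes, 0.5 added to both) of 6 pairs of related genes in each library; points are replicates 1 to 5 from left to right in LTB and HTB, and bars are the group mean ± SD. The groups are separate for Laptm5 against Laptm4a and overlap in the other 5 pairs.

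Per length of transcript, Psap, Cd63, Laptm4a, Atp6v0c and Lamp1 were the most abundant members. Cd63 stood at 402 RPKM in LTB and 397 in HTB, Laptm4a at 242 and 236, Lamp1 at 238 and 216, and Atp6v0c at 242 and 168. In the sum of all 110 members, CPM were 11012 to 13615 in LTB, highest in replicate 1, and 10151 to 11057 in HTB. LTB replicate 1 held the highest LTB value for 47 of the tested members and HTB replicate 2 the lowest HTB value for 42 and the highest for 35.

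Beyond the KEGG rows, a minority of genes that regulate or serve the lysosome passed, in both directions. Among the TFEB family and its regulators 0.0% were lower and 11.8% higher. The shares were 5.56% and 11.1% for tethering and positioning and 0.0% and 4.0% for autophagy. Of all tested genes 7.51% were lower and 3.91% higher. Of 17 tested genes of the TFEB family and its regulators 0 were lower and 2 higher in HTB: Slc38a9, the arginine sensor of the lysosomal membrane, at 0.50 (adjusted p = 0.0407), and Mtor, the kinase it acts on, at 0.16 (adjusted p = 0.0483). Fnip2 changed by -0.38 (adjusted p = 0.0583), and among the factors themselves Tfeb changed by 0.50 (adjusted p = 0.223), Tfe3 by -0.01 (0.967) and Mitf by -0.20 (0.449). Of 18 genes of tethering and positioning 1 was lower, Vps16 at -0.21 (adjusted p = 0.0351), and 2 were higher, Vps33a at 0.28 (0.0131) and Snapin at 0.35 (0.0288). Vps16 and Vps33a are partners in the HOPS complex, which docks vesicles at the lysosome. In edgeR at an unadjusted p under 0.05, 2 of the TFEB list were lower, and 1 with DESeq2 and 0 with limma voom. In this list 2 were higher with DESeq2 and 1 with limma voom or without HTB replicate 2. Of 25 autophagy genes 0 were lower (1 at an unadjusted p under 0.05, 0 with DESeq2 and with limma voom) and 1 was higher, Ulk2, a kinase that starts autophagy, at 0.39 (adjusted p = 0.0394), while Wipi2 changed by 0.19 (0.0537) and Calcoco1 by 0.72 (0.0625). With DESeq2 3 autophagy genes were higher and with limma voom 1. For both lists, the shares of all genes were 9.94% lower and 7.56% higher with DESeq2, and 7.42% and 3.56% with limma voom. Without HTB replicate 2, 9.77% of all genes were higher. At an unadjusted p under 0.05 in edgeR, 2046 of all 13469 tested genes were lower.

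Lysosomal proteins that KEGG does not list were counted as well. Of 25 tested 6 were lower and 2 higher, or 24.0% and 8.0% beside 7.51% and 3.91% of all tested genes, with a median of -0.20. The difference from the members was not tested. Slc15a3, a peptide and histidine transporter of immune cells, fell from 47.2 CPM in LTB to 10.5 CPM in HTB, a log2 fold change of -2.16 ± 0.34 (adjusted p = 0.00433). Pld3, an exonuclease, changed by -0.42 (adjusted p = 0.0136). Clcn7, the chloride and proton exchanger, changed by -0.38 (adjusted p = 0.0145) together with its beta subunit Ostm1 at -0.52 (adjusted p = 0.0235). Scpep1, a carboxypeptidase, and Grn, progranulin, were also lower, by -0.39 (adjusted p = 0.0168) and -0.29 (adjusted p = 0.0413). The ion channels Tmem175 and Tpcn1 were higher, by 0.31 (adjusted p = 0.029) and 0.43 (adjusted p = 0.0345). Summed macrophage markers in the same libraries ranged from 961 to 1598 CPM in HTB and from 1522 to 3248 CPM in LTB, so the ranges overlapped. Their part in these values was not tested.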

How the data were processed

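Per the labels' protocols, total RNA was purified on columns and a SMARTer mRNA kit gave the libraries. The genome build was GRCm38 (mm10), per the submitters' processing notes; aligner, counter and strand handling were not given in the sources used here. The values are estimated counts of reads for each gene in each library, which the authors deposited without scaling to library size. Of them 86.4% were whole within 1e-09. They were rounded to whole numbers.

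Groups were compared with the quasi-likelihood test of edgeR 4.0.16 (R 4.3.3) with TMM factors (0.975 to 1.03) and the filterByExpr filter on all 18223 genes, group as the only term, Benjamini-Hochberg adjustment over 13469 genes and a threshold of 0.05. It was tested on simulated data. RPKM divides CPM by the longest annotated RefSeq transcript, found for 106 members. Ratios used reads plus 0.5 and a two-sided exact permutation test (scipy 1.17.1). Gene positions are those of the deposited table in GRCm38 and span exons and introns. They overlap another gene of the table for 58 members. Promoters are from RefSeq (GRCm38.p6). All libraries of a group differed from each other by more than sampling noise (smallest chi-square per degree of freedom 10.4).

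The members, roles, marker and pathway lists and tests were chosen with earlier results of these data known. Named members are the called ones with the 10 largest changes in each direction at a mean log2 CPM of at least 1, the 3 smallest p in each role or pathway list, the genes of the ratios and a preset list of well-known lysosomal genes. Ids, Arsa, Naglu, Manba, Entpd4, Entpd4b, Psapl1, Lamp3, the other members without a test, Tfeb, Tfe3, Mitf, Ostm1, Scpep1, Grn, Tmem175 and Tpcn1, and the remaining motif carriers, were named after their values were seen, to complete a count or a group. The alternatives tried were upper-quartile and DESeq2 scaling, a Wald test in DESeq2 1.42.0, voom in limma 3.58.1, other filters, a threshold of 0.1, a replicate block and leaving out libraries. Some genes that the rule selects are left out of the text, though they stay in the counts, and are not reported here.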

Additional observations from a re-analysis of the deposited data

Results flagged for a closer look

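For 42 named members, each group of 5 libraries was searched for a highest or lowest value whose gap to its nearest neighbour exceeded 0.71 of the group's range (Dixon's 95% limit). Of 84 groups 14 had such a library, where chance flags about 1 in 20. LTB replicate 1 was the library in 7 of the 14 and HTB replicate 2 in 4.

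In LTB replicate 1, Psap had 2487 CPM (1302 to 1540 in the other LTB libraries), Laptm5 369.4 (206 to 243), Npc1 84.09 (54.1 to 59.4), Gla 44.2 (23.3 to 28.4), Neu1 31.41 (19.6 to 20.1), Ppt2 26.79 (9.07 to 13.0) and Napsa 10.6 (7.47 to 7.77). This library also had the highest summed macrophage markers, 3248 CPM, and T cell markers, 226 CPM; their part was not tested. In HTB replicate 2, Gm2a had 115.8 CPM (38.4 to 56.2 in the other HTB libraries), Acp5 67.55 (4.55 to 16.8), Sort1 51.99 (2.37 to 3.73) and Ppt2 10.65 (6.01 to 7.13). Its muscle markers summed to 14804 CPM and its adipocyte markers to 5685 CPM, and their part was not tested either.

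The other flagged values fell in single libraries. Gnptab had 87.57 CPM in LTB replicate 3 (77.0 to 79.2 in the others). Laptm4b had 31.33 CPM in LTB replicate 4 (20.4 to 23.4), and Atp6v0a1 had 84.76 CPM in LTB replicate 5 (49.1 to 57.6).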

How the results depend on the processing

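With 42 named members, 797 values under the alternatives gave 701 on the same side of the threshold as the main test, 68 that no longer passed, 28 that newly passed and 0 of opposite sign past the threshold. Scaling by upper quartiles or by DESeq2 size factors called the same 12 lower and 2 higher members. The shares of all genes were 7.43% lower and 4.09% higher with upper quartiles, and 7.42% and 4.22% with DESeq2 size factors. Limma voom called 11 lower and 2 higher members, beside 7.42% and 3.56% of all genes. DESeq2's own test called 16 lower and 3 higher members (15.2% and 2.86%), beside 1426 and 1084 of all genes (9.94% and 7.56%). A threshold of 0.1 called 16 and 3 (15.5% and 2.91%), beside 1492 and 1127 of all genes (11.1% and 8.37%). Without a filter on low counts, 9 members were lower and 1 higher (8.18% and 0.909%), beside 862 and 412 of all genes (4.74% and 2.27%). Leaving out 1 library gave 3 to 17 lower and 0 to 5 higher members, and 559 to 1716 lower and 177 to 1324 higher genes in all. With HTB replicate 2 and LTB replicate 1 both left out, 20 members were lower and 4 higher (1663 and 1245 of all genes). The members' median log2 fold change stayed between -0.10 and -0.06.

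The numbers 1 to 5 in the titles are not said to pair the libraries. The deviations of same-numbered libraries correlated at 0.07, -0.02, -0.02, 0.10 and 0.09, and HTB replicates 1 and 4 correlated best with their own. These values cannot show whether the libraries were paired. With a replicate block, 5 members were lower (4.85%, beside 750 or 5.57% of all genes) and 1 higher (0.971%, beside 221 or 1.64%). Of the pump's 4 lower genes 0 passed with the block, and neither did the higher genes of the TFEB, tethering and autophagy lists, while 4 lower and 1 higher of the lysosomal genes outside KEGG did. The ratio of Laptm5 to Laptm4a, -0.78 in the paired test, then had an exact adjusted p of 0.375, a test that cannot pass the threshold with 5 pairs. When 1 library was left out, that ratio ranged from -0.87 to -0.62, that of Atp6v0d2 to Atp6v0d1 from -1.83 to -1.24, that of Tcirg1 to Atp6v0a1 from -0.50 to -0.25 and that of Igf2r to M6pr from 0.17 to 0.47.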
